A study of Mus musculus with 4 samples.

Results

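The genes of the mitochondrial ribosome were followed through 4 antipsychotic treatments of the mouse frontal cortex. They were chosen by name: every gene whose symbol in the platform annotation starts with Mrpl or Mrps and a digit, which gave 76 of the 16504 genes on the array, 47 named for the large and 29 for the small subunit. Male ddY mice, an outbred stock, were injected intraperitoneally once daily on 28 days at an age of 13 weeks. The doses were 25 mg/kg for both chlorpromazine and thioridazine, 1.25 mg/kg for olanzapine and 18.75 mg/kg for quetiapine, with chlorpromazine and thioridazine as HCl salts and quetiapine as the fumarate. The drugs were given in acetic acid and saline, and control mice received vehicle. Each drug had 1 dual-colour Agilent array, with drug RNA labelled by cyanine 5 and vehicle RNA by cyanine 3. The sources used here do not give the number of mice behind an array or say whether the arrays shared their vehicle RNA.

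The mitochondrial ribosome translates the few proteins that mitochondrial DNA encodes, which are core subunits of the respiratory chain and of ATP synthase. Its proteins are encoded in the nucleus, made in the cytosol and imported. Some descend from proteins of bacterial ribosomes and others were added in the evolution of mitochondria. The small subunit binds the messenger RNA and decodes it, and the large subunit joins the amino acids. Neurons depend on respiration for their ATP.

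Each value below is a log2 ratio, likely of drug over vehicle, so a value below 0 means less RNA with the drug. The scale (log10 in the deposited table) and the direction are read from the dyes in the labels and the software's convention, and are not stated for the table. Were the direction the reverse, every sign would turn. The arrays hold no second measurement of any drug, so no drug is tested alone. Over all genes the median log2 ratio was between 0.0059 and 0.0153 on every array. The standard deviation was 0.33 under chlorpromazine, 0.47 under thioridazine, 0.59 under olanzapine and 0.43 under quetiapine. As a yardstick of technical spread, 48 accessions spotted 10 or more times had a median standard deviation between spots of 0.06, 0.16, 0.16 and 0.10 log2 units in the same order. The table gives ratios only, so the labelled tissue could not be checked against the level of its markers.

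The promoters of 3 members are shown because these genes had low ratios with every drug: Mrpl47 had the lowest mean of all 76, and the other 2 each hold 1 of the 2 motifs given here. The motifs are those of factors known to drive nuclear genes for mitochondria: CCGGAAGT for the ETS family that includes GABP, and AAGATGGC for YY1, each on both strands. The sequences are RefSeq's (GRCm38.p6), the 250 bases before the gene's start, 5′ to 3′ on the gene's strand, with a motif in capitals.
Mrpl47, chr3:32736756-32737005, minus strand: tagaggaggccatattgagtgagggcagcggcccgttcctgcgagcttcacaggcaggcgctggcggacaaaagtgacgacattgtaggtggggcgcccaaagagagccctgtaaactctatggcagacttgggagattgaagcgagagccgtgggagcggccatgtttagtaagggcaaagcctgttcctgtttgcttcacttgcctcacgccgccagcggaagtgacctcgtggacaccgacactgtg
Mrpl36, chr13:73330759-73331008, plus strand: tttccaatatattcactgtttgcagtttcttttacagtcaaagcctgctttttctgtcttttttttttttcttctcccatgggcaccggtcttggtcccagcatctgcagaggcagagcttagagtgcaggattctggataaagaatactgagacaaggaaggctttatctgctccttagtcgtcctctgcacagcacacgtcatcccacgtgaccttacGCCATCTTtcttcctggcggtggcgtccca
Mrps22, chr9:98601680-98601929, minus strand: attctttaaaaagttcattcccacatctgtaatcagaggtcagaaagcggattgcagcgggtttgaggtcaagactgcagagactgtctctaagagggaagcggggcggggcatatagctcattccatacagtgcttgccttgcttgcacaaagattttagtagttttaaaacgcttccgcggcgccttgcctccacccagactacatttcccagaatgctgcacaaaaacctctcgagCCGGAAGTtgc

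The RefSeq promoter table, which adds the 50 bases after the start, held 68 of the 76 members. The ETS letters were in 11 of them (16.2%), against 6.61% of 13200 genes of the array with a promoter in the table. The YY1 letters were in 12 members (17.6%) against 3.95%. At least 1 of the 2 was in 22 members (32.4%) and in 10.2% of the array's genes. Members with the ETS letters had a median 4-drug mean log2 ratio of -0.11, against -0.12 for the 57 without them. The median was -0.08 for members with the YY1 letters and -0.13 for the 56 without them. A match is a description of the sequence, and no test was run on these medians.

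The 76 members lay slightly below vehicle on most arrays. Their median log2 ratio was -0.15 under chlorpromazine, -0.16 under thioridazine, -0.06 under olanzapine and -0.13 under quetiapine. With chlorpromazine 57 of 76 ratios were below 0, against 48.6% of all genes. With thioridazine 66 were (all genes 49.1%), with olanzapine 43 (all genes 47.8%) and with quetiapine 57 (all genes 49.1%). Olanzapine was the array on which the members lay nearest to the rest of the genes. Genes of 1 array share its dye normalisation. In tissue RNA, less RNA per cell and fewer cells of a type cannot be told apart. Nor can a drug effect be told apart from a dye effect common to the arrays.

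**Figure D1:**
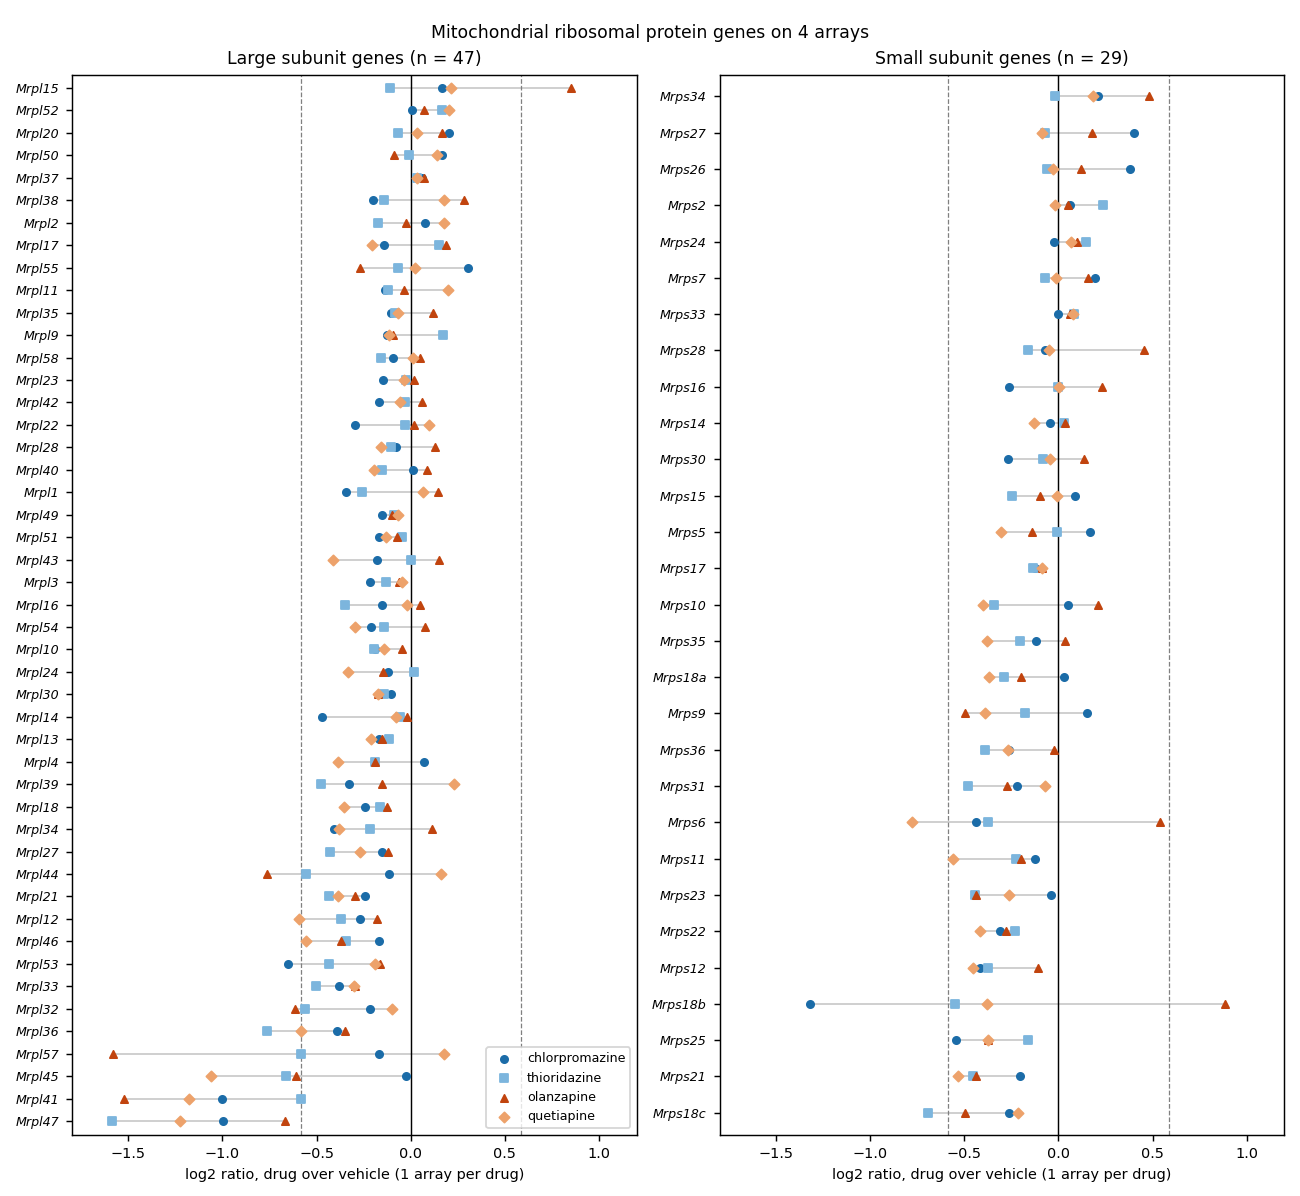
Log2 ratio, likely drug over vehicle (x axis), of each of the 47 large (left) and 29 small (right) subunit genes, ordered by the mean of 4 arrays. Points are single arrays, 1 per drug, grey bars span the 4 arrays and dashed lines mark 1.5-fold. Most points lie between the dashed lines, and Mrpl47 and Mrpl41 stand at the low end with every drug.

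Few members shifted by 1.5-fold or more, and most of these shifts were below vehicle. At least 1.5-fold below vehicle were 4 of 76 members with chlorpromazine (all genes 3.31%), 4 under thioridazine (7.36%), 6 under olanzapine (8.31%) and 5 under quetiapine (7.57%). At least 1.5-fold above vehicle there were 2 members with olanzapine (all genes 9.13%). None were with chlorpromazine (3.60%), thioridazine (6.03%) or quetiapine (5.05%). Either way, 4, 4, 8 and 5 members were past 1.5-fold in the order chlorpromazine, thioridazine, olanzapine and quetiapine, beside 6.91%, 13.4%, 17.4% and 12.6% of all genes. At 2-fold, 2, 1, 2 and 3 members were below vehicle in the order chlorpromazine, thioridazine, olanzapine and quetiapine, beside 0.899%, 2.54%, 3.33% and 2.31% of all genes. No member was 2-fold above vehicle, as 0.795%, 1.98%, 4.64% and 1.43% of all genes were. Below vehicle, the members' share was above that of all genes at 1.5-fold with chlorpromazine, and at 2-fold with chlorpromazine and quetiapine. In the other cases it was under that of all genes. Within 1.5-fold were 94.7%, 94.7%, 89.5% and 93.4% of members under chlorpromazine, thioridazine, olanzapine and quetiapine. Of all genes 93.1%, 86.6%, 82.6% and 87.4% were. The standard deviation over members was 0.28, 0.27, 0.38 and 0.30 in the same order, on each array below that over all genes.

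Large and small subunit genes were then set side by side. Large subunit genes had a median log2 ratio of -0.17 under chlorpromazine, -0.14 under thioridazine, -0.07 under olanzapine and -0.12 under quetiapine. Small subunit genes had medians of -0.07, -0.18, 0.04 and -0.22 in the same order. The difference, large minus small, was therefore -0.09 under chlorpromazine, 0.03 under thioridazine, -0.11 under olanzapine and 0.10 under quetiapine, so its sign was not the same across the drugs. With the mean in place of the median the thioridazine difference was -0.04, on the other side of 0. No test was run on these differences. Single genes spread within a subunit with a standard deviation that was 0.25 to 0.40 over large and 0.22 to 0.33 over small subunit genes.

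By count, 38 of 47 large and 19 of 29 small subunit genes were below 0 under chlorpromazine, and 41 and 25 under thioridazine. With olanzapine 29 large and 14 small subunit genes were below 0, and with quetiapine 32 and 25. Of all genes 48.6%, 49.1%, 47.8% and 49.1% were below 0 under chlorpromazine, thioridazine, olanzapine and quetiapine. The small subunit share with olanzapine, 48.3%, was near that of all genes, and the other shares were above it. Of the 8 ratios at least 2-fold below vehicle on any array, all but Mrps18b with chlorpromazine belonged to large subunit genes. Large subunit genes are 47 of the 76 members. Those large subunit ratios came only from Mrpl47, Mrpl41, Mrpl45 and Mrpl57, with Mrpl47 and Mrpl41 counted more than once. Mrps30 and Mrps18a carry a small subunit name but sit in the large subunit of the mammalian ribosome. Counting them there left all 4 median differences unchanged to 2 decimals.

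**Figure D2:**
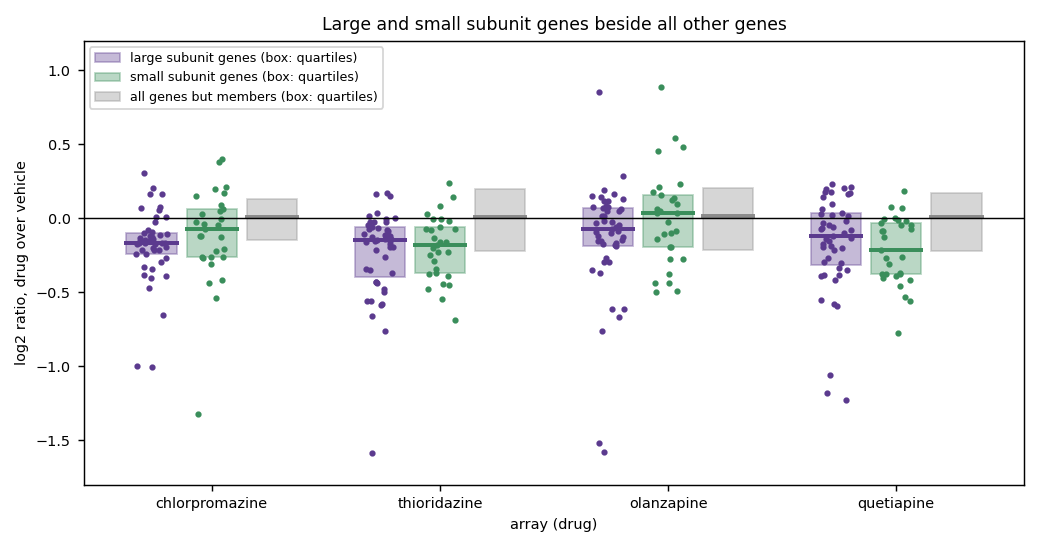
Log2 ratio, likely drug over vehicle (y axis), by array for large subunit genes (purple, n = 47), small subunit genes (green, n = 29) and all other genes (grey). Points are genes, boxes span the quartiles and thick lines are medians. The small subunit median lies above the large one with chlorpromazine and olanzapine and below it with thioridazine and quetiapine.

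Members listed with a bacterial counterpart were set beside those not so listed, with no test of the difference. Among large subunit genes, the 29 with a bacterial counterpart had medians of -0.15, -0.14, -0.06 and -0.14 under chlorpromazine, thioridazine, olanzapine and quetiapine, and the 18 without one had -0.17, -0.15, -0.08 and -0.06. Among small subunit genes, the 16 with a counterpart had medians of -0.06, -0.17, -0.02 and -0.17, and the 13 without one had -0.12, -0.20, 0.04 and -0.26. These 13 were counted by name, so they hold Mrps30 and Mrps18a. They also hold Mrps18b: of the mammalian relatives of bacterial S18 only Mrps18c was listed as a counterpart.

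The lowest member was Mrpl47, the counterpart of the bacterial protein L29 at the exit of the nascent chain tunnel. Its log2 ratio was -0.997 under chlorpromazine, -1.58 under thioridazine, -0.67 under olanzapine and -1.23 under quetiapine. All 4 arrays placed it more than 1.5-fold below vehicle, and no other member did that, though Mrpl41 came very close. On the thioridazine array 0.92% of all genes were lower. Mrpl41, a large subunit protein with no bacterial counterpart that is also known, in human cells, to bind the survival protein BCL2, had -1.003, -0.58, -1.52 and -1.18 in the same order. It lay furthest below with olanzapine and least with thioridazine, the reverse of Mrpl47. The thioridazine value of Mrpl41, -0.5847, was just short of 1.5-fold, which is 0.585 log2 units.

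Mrpl45, which lies beside the tunnel exit and anchors the ribosome to the inner membrane, had a log2 ratio of -0.02 under chlorpromazine, -0.66 under thioridazine, -0.61 under olanzapine and -1.06 under quetiapine. Chlorpromazine thus stood at vehicle level and the other drugs below it. Mrpl57, a small protein of the large subunit, had -0.17, -0.58, -1.58 and 0.17 in the same order, so that its low mean came mostly from the olanzapine array. Mrpl36, the counterpart of bacterial L36, had the more even values of -0.39, -0.76, -0.35 and -0.58.

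Mrps18b, 1 of 3 mammalian relatives of bacterial S18, varied most among the members. It had a log2 ratio of -1.32 under chlorpromazine, the lowest of any member there, -0.55 under thioridazine, 0.89 under olanzapine, the highest of any member there, and -0.38 under quetiapine. Its relative Mrps18c had -0.26, -0.69, -0.50 and -0.22 in the same order, all below 0. Mrps18a, the relative placed in the large subunit, had 0.03, -0.29, -0.20 and -0.37. The 3 relatives thus did not share a profile. Mrpl47, Mrps18b and Mrpl44 were read by features that the annotation ties to cDNA clones outside RefSeq's curated transcripts, as were Mrpl21 and Mrpl52, and these are 5 of the 76 members. Whether such features read the named gene less well was not tested.

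Mrps6, the counterpart of bacterial S6, was above vehicle with olanzapine only, at 0.54, against -0.44 under chlorpromazine, -0.38 under thioridazine and -0.78 under quetiapine. Mrpl44, a protein with an RNase III-like fold, had a log2 ratio of -0.11 under chlorpromazine, -0.56 under thioridazine, -0.76 under olanzapine and 0.16 under quetiapine. Mrpl39, at 0.23, was the highest member with quetiapine and lay below vehicle elsewhere, at -0.33, -0.48 and -0.15 under chlorpromazine, thioridazine and olanzapine.

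Few members lay above vehicle with every drug or nearly so. Mrpl15, the counterpart of bacterial L15, had the highest mean, with log2 ratios of 0.16 under chlorpromazine, -0.11 under thioridazine, 0.85 under olanzapine and 0.21 under quetiapine. Mrps34, of the small subunit, had 0.21, -0.02, 0.48 and 0.18 in the same order. Thioridazine was the array on which both were lowest. Mrpl52 had 0.01, 0.17, 0.07 and 0.21. Mrps26 and Mrps27, whose means were also among the highest, were at 0.38 and 0.40 with chlorpromazine and at 0.12 and 0.18 with olanzapine. Both were slightly below 0 with thioridazine and quetiapine. On single arrays Mrpl55 reached 0.30 under chlorpromazine, and Mrps2 and Mrpl9 reached 0.24 and 0.17 under thioridazine.

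Other members were nearly flat, and these were picked after their values were seen. Mrpl37 had log2 ratios of 0.06, 0.03, 0.07 and 0.04 under chlorpromazine, thioridazine, olanzapine and quetiapine, with a standard deviation of 0.02 over the 4 arrays. Mrps17, the counterpart of bacterial S17, had -0.12, -0.14, -0.09 and -0.09 (standard deviation 0.03). Mrpl40 was the only member with 2 features, which differed by at most 0.08 log2 units on any array. No member had features that disagreed by 1 log2 unit, and none lacked a value on any array.

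The change common to the drugs was asked with limma, which set the mean of the 4 arrays against 0 for the 16139 genes measured on all of them. The 4 drugs stand as replicates of treatment here, so a p-value reflects only how far the 4 drugs' arrays differ. If 1 vehicle RNA served on all arrays, its own deviation would enter every ratio. Over all genes 24 passed at an adjusted p of 0.05 (0.149%), and 0 of 76 members did. With any 1 array left out 0 genes passed, and with arrays scaled to one spread 62 did. An unadjusted p under 0.05 was found for 23 members (30.3%), against 26.2% of all genes. Without the thioridazine array it was found for 14 members. All 23 had a mean below 0, where 14.2% of all genes had such a p in that direction and 11.9% in the other. They were 14 large and 9 small subunit genes, close to equal shares of each subunit (29.8% and 31.0%). In all, 61 of 76 members had a mean below 0, against 49.0% of all genes tested. Their median mean was -0.12, against 0.01 for all genes.

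Mrpl47 had the smallest p among the members, with a mean log2 ratio of -1.12 (SE 0.16, limma adjusted p = 0.0673). Mrpl41 had a mean of -1.07 (SE 0.16, limma adjusted p = 0.0711). Neither passed, and both were below vehicle on 4 of 4 arrays. Mrpl33, the counterpart of bacterial L33, had a mean of -0.37 (SE 0.06, limma adjusted p = 0.0848), from ratios of -0.38 under chlorpromazine, -0.50 under thioridazine, -0.29 under olanzapine and -0.30 under quetiapine. Mrpl36 had a mean of -0.52 (SE 0.09, limma adjusted p = 0.0849). Mrpl21 had a mean of -0.34 (SE 0.06, limma adjusted p = 0.0910), with ratios between -0.43 and -0.24 on the 4 arrays.

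Next came 2 small subunit genes. Mrps21 had a mean of -0.41 (SE 0.08, limma adjusted p = 0.0931), with -0.21 under chlorpromazine, -0.45 under thioridazine, -0.44 under olanzapine and -0.53 under quetiapine. Mrps22, a small subunit protein with no bacterial counterpart, had a mean of -0.31 (SE 0.06, limma adjusted p = 0.0969) and ratios from -0.42 to -0.23. None of these passed. Of the lowest means, Mrpl45 (-0.59, SE 0.18) and Mrpl57 (-0.54) varied more between the drugs, with limma adjusted p of 0.145 for Mrpl45. The means of Mrpl15, Mrps34, Mrpl52, Mrps27 and Mrps26 were 0.28, 0.21, 0.11, 0.10 and 0.10, and none of these had an unadjusted p under 0.05. Single arrays carried most of them: without olanzapine the mean was 0.089 for Mrpl15 and 0.124 for Mrps34, and without chlorpromazine it was 0.0099 for Mrps26 and 0.0065 for Mrps27. Without olanzapine the mean of Mrpl57 was -0.19.

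The phenothiazines, chlorpromazine and thioridazine, were next compared with the drugs that hold an azepine ring, olanzapine and quetiapine. Doses in mg/kg differ with the class. With limma 0 of 16139 genes passed (0%) and so no member did. An unadjusted p under 0.05 was found for 2 members (2.63%), against 2.84% of all genes, so the members' share was near the background. The count was 5 without quetiapine, 1 without olanzapine and 0 without either phenothiazine. Both genes of the fit with all 4 arrays had the lower ratios with the phenothiazines, the side on which 1.21% of all genes had such a p, with 1.63% on the other. The difference was below 0 for 47 of 76 members, against 51.2% of all genes. The median difference over the members was -0.03 (phenothiazine minus azepine), with a median SE of 0.17, and over all genes it was -0.01.

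Mrpl1, the counterpart of bacterial L1 at the ribosome's L1 stalk, had log2 ratios of -0.35 under chlorpromazine and -0.26 under thioridazine, against 0.15 under olanzapine and 0.07 under quetiapine. The difference was -0.41 (95% interval -0.77 to -0.05, limma adjusted p = 0.999). Mrpl38, of the large subunit, had -0.20 and -0.14 with the phenothiazines and 0.28 and 0.17 with the azepine-ring drugs, a difference of -0.40 (95% interval -0.77 to -0.03). Neither gene passed. Mrpl53 had -0.65 and -0.44 under chlorpromazine and thioridazine, against -0.16 and -0.19 under olanzapine and quetiapine, a difference of -0.37 (95% interval -0.78 to 0.04). For Mrps9, 0.15 and -0.18 with the phenothiazines stood against -0.50 and -0.39, a difference of 0.43 (95% interval -0.06 to 0.92), and for Mrpl41 the difference was 0.56 (95% interval -0.09 to 1.2).

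**Figure D3:**
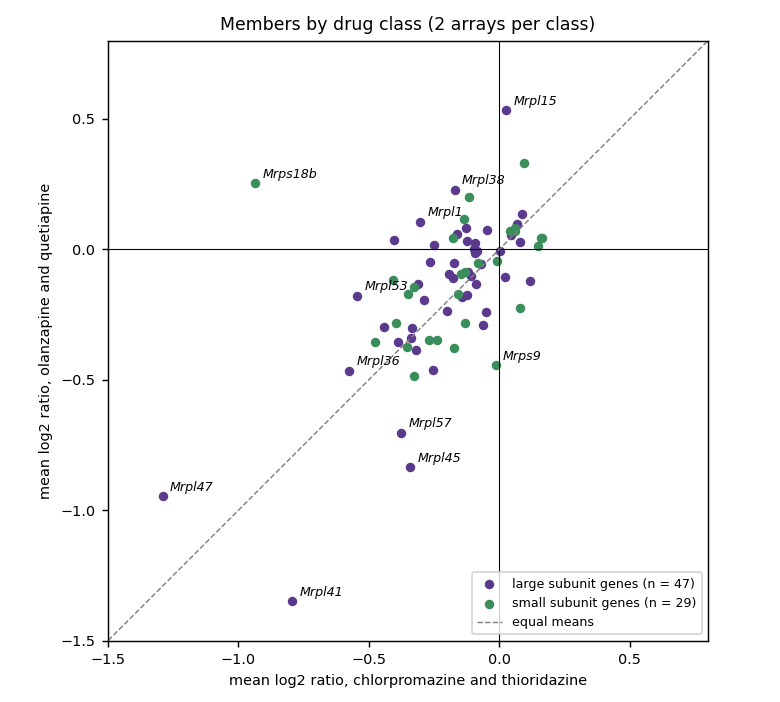
Mean log2 ratio, likely drug over vehicle, of each member with chlorpromazine and thioridazine (x axis) and with olanzapine and quetiapine (y axis). Points are genes, purple for the large and green for the small subunit, and the dashed line marks equal means. Mrpl47 and Mrpl41 are far below 0 on both axes, and Mrps18b lies below 0 on the x axis and above 0 on the y axis.

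Within each chemical class the 2 drugs also gave unlike values for single members. Chlorpromazine and thioridazine, given at the same dose and for the same time, had close member medians, but Mrps18b lay at -1.32 under chlorpromazine and -0.55 under thioridazine, and Mrpl45 at -0.02 and -0.66. Olanzapine and quetiapine lay at -1.58 and 0.17 for Mrpl57, and at 0.54 and -0.78 for Mrps6. With 1 array a drug these differences have no replicate check.

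Other genes of mitochondrial translation were read for context. Of proteins of the same ribosome under other names, Dap3, Ptcd3, Chchd1 and Gadd45gip1 were on the array. Their medians were -0.02, -0.05, 0.46 and 0.09 under chlorpromazine, thioridazine, olanzapine and quetiapine. With olanzapine, Ptcd3 had a log2 ratio of 0.59, Gadd45gip1 of 0.53 and the guanosine triphosphate-binding protein Dap3 of 0.38. These 3 thus lay above vehicle on the array where the medians of large and of small subunit genes were also highest.

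Among 14 translation factors of mitochondria the medians were -0.13, -0.09, -0.18 and -0.31, and 10 means were below 0 (all genes 49.0%). None passed with limma, and 4 (28.6%) had an unadjusted p under 0.05, all lower, beside 26.2% of all genes either way and 14.2% lower. The release factor gene Mtrf1l had a mean of -0.52 (SE 0.08, limma adjusted p = 0.0675), and the ribosome recycling factor gene Mrrf a mean of -0.40 (SE 0.09, limma adjusted p = 0.110). Oxa1l, whose product inserts new chains into the inner membrane, had a mean of -0.28, and Mtfmt, which formylates the initiator methionine, of -0.38. The elongation factor gene Tufm had log2 ratios of -0.35, -0.03, 0.30 and -0.32 under chlorpromazine, thioridazine, olanzapine and quetiapine.

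The mitochondrial aminoacyl-tRNA synthetases and related enzymes, 18 genes, had medians of 0.03, 0.05, 0.07 and 0.01 in the same order. At an unadjusted p under 0.05 in limma 2 were lower and 1 higher (16.7%). Of all genes 26.2% had such a p, 14.2% lower and 11.9% higher. Genes of ribosome assembly and mitochondrial transcription, 25 in all, had medians of 0.05, 0.00, 0.00 and 0.05, with 3 lower and 1 higher (16%). Both lists were thus under the share of all genes. Mrm1, which methylates the large ribosomal RNA of mitochondria, had the smallest p of the assembly and transcription list and is named after its values were seen. Its log2 ratios were 1.01 under chlorpromazine, 0.89 under thioridazine, 1.71 under olanzapine and 0.90 under quetiapine, above vehicle on 4 of 4 arrays (mean 1.13, SE 0.16; adjusted p = 0.0673 in limma). Tfam, which packages mitochondrial DNA and starts its transcription, was among the lower: its mean was -0.32 (SE 0.06; adjusted p = 0.0926 in limma). No gene of either list passed with limma. The 76 members and the translation factors thus had the lower medians, the synthetases and assembly genes lay near 0, and the 4 ribosome proteins under other names had a median mean of 0.13; no test was run on these differences.

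The 9 regulators of nuclear genes for mitochondria had medians of 0.10, -0.23, 0.01 and -0.07 under chlorpromazine, thioridazine, olanzapine and quetiapine. Of the 8 measured on all arrays 3 had a mean below 0, and 1 had an unadjusted p under 0.05: Pprc1, a coactivator, with a mean of -0.37 (SE 0.14; adjusted p = 0.183 in limma). The means of Myc, Gabpb1, Ppargc1a, Ppargc1b and Esrra were 0.36, 0.15, 0.09, 0.04 and -0.25. Gabpa had log2 ratios of 0.22, 0.23, 0.01 and 0.85 under chlorpromazine, thioridazine, olanzapine and quetiapine. Nrf1 had 0.28, -0.29 and -0.13 with the first 3 drugs and was not measured with quetiapine. Yy1 had -0.43, -2.66, -0.52 and -0.58, below vehicle on 4 of 4 arrays and lowest with thioridazine. Its mean did not pass, nor did it have an unadjusted p under 0.05.

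The most alike gene sets were the cytosolic ribosomal proteins and the subunits of oxidative phosphorylation. The 71 cytosolic ribosomal protein genes had medians of -0.13, 0.03, 0.05 and -0.002 under chlorpromazine, thioridazine, olanzapine and quetiapine, so they lay near the mitochondrial set with chlorpromazine and nearer 0 with the other drugs. The 80 oxidative phosphorylation genes had -0.12, -0.10, 0.01 and -0.10, below 0 with the same 3 drugs as the small subunit median. In limma's test of the mean of the drugs, 10 cytosolic ribosomal protein genes had an unadjusted p under 0.05 below 0 and 3 above. Of the oxidative phosphorylation genes 14 had one below 0 and 0 above. These are 18.3% of the cytosolic ribosomal protein genes and 17.5% of the oxidative phosphorylation genes, both under the 26.2% of all genes. Below 0 alone, 14.2% of all genes had such a p, less than the 17.5% of oxidative phosphorylation genes. The mean of the drugs was below 0 for 60 of 80 oxidative phosphorylation genes, near the members' 61 of 76. It was below 0 for 38 of 71 cytosolic ribosomal protein genes and 49.0% of all genes. None of the genes of either set passed.

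**Figure D4:**
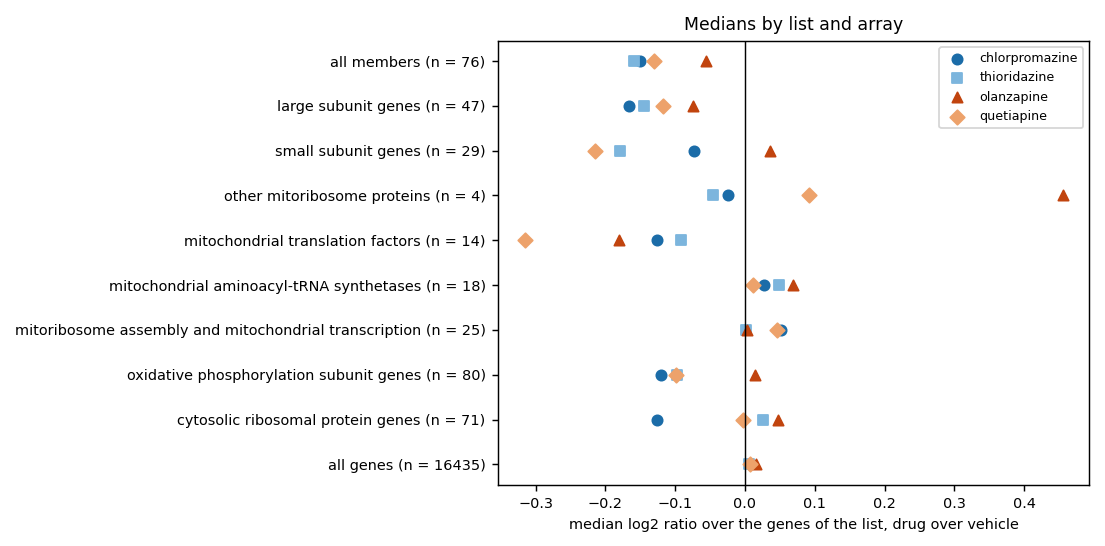
Median log2 ratio, likely drug over vehicle (x axis), over the genes of each list (rows, with the most genes measured on an array) for the 4 arrays, 1 point per drug. The members' median lies left of 0 with each drug, that of the translation factors does too, and the median of all genes is near 0.

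Markers of the cell types of cortex were read on the same arrays. The 8 neuron markers had medians of -0.05, -0.25, -0.16 and -0.11 under chlorpromazine, thioridazine, olanzapine and quetiapine. Astrocyte markers (7 genes) had 0.04, 0.18, 0.12 and -0.11, oligodendrocyte markers (6) 0.23, 0.03, -0.06 and -0.05, and endothelial markers (7) 0.20, 0.04, 0.12 and 0.09. Microglia markers (6) had -0.46, 0.31, 0.04 and 0.07, and red cell genes (3) 0.04, 0.91, -0.86 and 0.30. The median of the neuron markers was thus below 0 with every drug, as that of the members was. The order of the drugs differed: the neuron median was nearest 0 with chlorpromazine, and the members' median with olanzapine. In the order chlorpromazine, thioridazine, olanzapine and quetiapine, 5, 6, 7 and 8 of the 8 neuron markers were below 0. Of all genes 48.6%, 49.1%, 47.8% and 49.1% were. The part of cell types in the members' ratios was not tested.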

How the data were processed

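Per the labels, the authors used Agilent Feature Extraction 7.1 with dye normalisation by LOWESS and rank consistency filtering, and deposited 1 log10 ratio per feature and array. Signal intensities were not used here, so no dim probes were filtered, and the number of arrays limits the precision.

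The 22393 features were named from the platform annotation: 18218 had 1 symbol, 16 several (left out, among them 1 with a member's name) and 4159 none here. By Entrez identifier 18175 took RefSeq's current symbol (GRCm38.p6, for names). Exact zeros (198 to 594 per array) were taken as missing. Ratios were converted to log2 and averaged per gene. Tests were run in limma 3.58.1 (R 4.3.3); p-values were adjusted by Benjamini-Hochberg over all 16139 genes measured on 4 arrays. The fits were tested on simulated data. Promoters were also searched for the motif of NRF1, whose result is not reported here.

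Members, lists and tests were chosen with earlier results of these data known. Named are the 3 highest and 3 lowest members of each array, the 5 highest and lowest means, members past 1.5-fold on 2 or more arrays and the 5 smallest p of each test; others are counted, or named where the text says so or beside a related gene. Alternatives were another log base, zeros kept, features apart, centring, scaling, other moderation, a 2-fold threshold, means for medians and each array left out.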

Additional observations from a re-analysis of the deposited data

Results flagged for a closer look

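For 3 of 76 members, 1 array lay far from the other 3 (Dixon's test over the 4 arrays), which is 3.95% of them, against 6.32% of all genes and about 5% by chance; the count is thus no more than the background. Mrpl14, the counterpart of bacterial L14, had a log2 ratio of -0.47 with chlorpromazine, and the other drugs lay between -0.08 and -0.02. Mrpl35 stood at 0.12 with olanzapine, apart from -0.10 to -0.07 with the other drugs. Mrpl9 stood at 0.17 with thioridazine, apart from -0.13 to -0.09. With 1 array a drug, the drug and the array cannot be told apart.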

How the results depend on the processing

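No paired analysis was possible because each drug has 1 array. No member passed in either limma test, and no gene passed between the classes, under any alternative run. Of all genes 24 passed in the common change, 62 with arrays scaled to one spread, 0 with an ordinary t statistic, and 0 (0 to 0) whichever array was left out. The members with an unadjusted p under 0.05 there numbered 23, and 14 to 21 with an array left out, lowest without thioridazine at 14. Between the classes they numbered 2, and 0 to 5 with an array left out: 5 without quetiapine, 1 without olanzapine and 0 when either phenothiazine was dropped; the lone array of a class was then assumed to vary like the others. Read as log2 already, every ratio shrinks by the same factor: the medians were -0.045, -0.048, -0.017 and -0.039 with chlorpromazine, thioridazine, olanzapine and quetiapine, the large minus small differences were -0.028, 0.0105, -0.033 and 0.030, and 0 members were past 1.5-fold with any drug. At 2-fold 2, 1, 2 and 3 members were past the threshold with chlorpromazine, thioridazine, olanzapine and quetiapine, in place of 4, 4, 8 and 5. With arrays scaled to one spread 7 were past 1.5-fold with chlorpromazine. The 17 named means and class differences kept their sign in all 187 alternative values, but leaving out 1 array moved 7 of them by over 1.5 times: the means of Mrpl15, Mrps34, Mrpl57, Mrps26 and Mrps27, as given beside them, and the class differences of Mrps9 (0.264 without chlorpromazine) and Mrpl41 (0.347 without thioridazine).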
